A study of Mus musculus with 12 samples.

Results

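Retinas given MBV alone were compared with retinas given fluvastatin alone, both 2 days after optic nerve crush (ONC). The comparison holds 6 of the 12 samples of the series, 3 with the treatment label MBV and 3 with the label Fluvastatin, and 15065 of the 25655 genes of the deposited table, those with at least 10 counts in 3 of these 6 libraries. All 12 samples were whole retinas of C57BL/6 mice of 8 to 10 weeks, and in all of them the left optic nerve had been crushed for 5 s and the eye had then received a single intravitreal injection. MBV are matrix-bound nanovesicles, small lipid vesicles embedded in extracellular matrix, here prepared from porcine urinary bladder. Fluvastatin is a statin, an inhibitor of cholesterol synthesis. No retina without injury or injection is part of the series as used here. The labels do not say whether the 3 samples of a group came from separate animals, so the p-values measure only the spread between these samples, which may be partly technical. Both groups carry library numbers from 1 set, 1 to 3 for fluvastatin and 4 to 6 for MBV, whereas PBS carries numbers of another set. For that reason the PBS values below are set beside the others without a test, since treatment and set cannot be told apart there.

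Statins block an early step of the mevalonate pathway, which leads from acetyl-CoA to cholesterol and to the isoprenoids that anchor small GTPases in membranes. When the membrane of the endoplasmic reticulum is short of sterol, SCAP carries the transcription factor SREBP2 to the Golgi, where it is cut, and the freed part switches on the genes of almost every enzyme of the pathway, of sterol uptake and of INSIG1, which retains SCAP and so closes the loop. The retina makes much of its cholesterol itself, with Müller glia as a main site, and takes up the rest from the blood by way of the retinal pigment epithelium.

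The libraries held 21349516 to 27098889 counts on genes, and at 10 CPM (counts scaled to 1000000 with edgeR's TMM factors) a gene rested on 219 to 274 counts, depending on the library. The labelled tissue was checked with the photoreceptor gene Prph2, which reached 3988, 3989.9 and 3860.3 CPM with fluvastatin and 3208, 2844 and 3875 CPM with MBV. The common biological coefficient of variation, edgeR's estimate of the spread between replicates beyond counting error, was 9.94% over both groups. MBV replicate 3 lay farthest from its group and fluvastatin replicate 1 came next. Without them the variation within MBV dropped from 10.6% to 5.51% and within fluvastatin from 9.23% to 5.33%. Without another library it was 11.1% or 13.8% within MBV and 10.5% within fluvastatin. Leaving out the farthest of 3 libraries lowers such a value in any case, so the drop cannot show that these libraries were unusual. In addition, RNA of the listed lens genes was more abundant in every MBV library, and in fluvastatin replicate 2, than in the other libraries, as detailed below.

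Fluvastatin-treated retinas held more mRNA of the cholesterol pathway than MBV-treated retinas. In a fit of both groups with edgeR (quasi-likelihood, FDR by Benjamini-Hochberg), 5 genes passed an FDR of 0.05, and 4 of them, with Insig1, Fdps and Fdft1, belong to cholesterol synthesis and uptake and were lower with MBV. The 5th, Usp2, was higher with MBV. These calls are 0.0266% of all genes tested for the lower and 0.00664% for the higher direction. None of the 5 reached a 2-fold change in edgeR, whereas 93 genes with an unadjusted p under 0.05 did, and DESeq2 and limma called 12 and 6 genes with such a change. At an unadjusted p under 0.05, 876 genes (5.81%) were lower with MBV and 992 genes (6.58%) were higher, a split that became 512 and 1327 without TMM scaling. All MBV libraries lay below all fluvastatin libraries in 9.11% of the genes tested and above them in 9.44%. These shares are to be read beside every count of list members below. The 5 calls numbered 6, 1 and 0 without fluvastatin replicates 1, 2 and 3, and 0, 9 and 23 without MBV replicates 1, 2 and 3, and all 5 were among the 23.

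**Figure D1:**
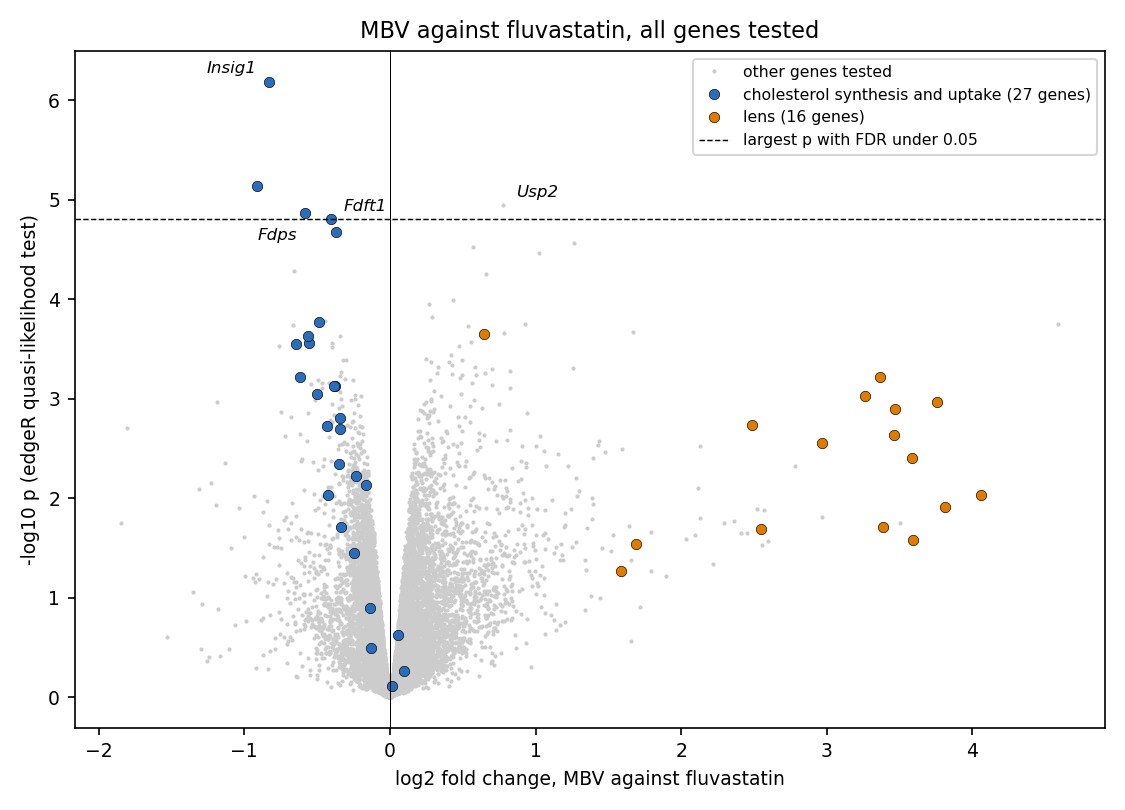
Each point is 1 of the 15065 genes tested, with the log2 fold change of MBV against fluvastatin on the x axis and the -log10 of the unadjusted p of edgeR's quasi-likelihood test on the y axis, and blue and orange points are the genes of cholesterol synthesis and uptake and of the lens. Usp2 and 4 blue points lie on or above the dashed line, the largest p with an FDR under 0.05. The orange points all lie below that line, most of them far to the right.

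Insig1 (chromosome 5 of GRCm39, 28276361 to 28283660) encodes the sterol-sensing brake of the pathway. It measured 108, 113 and 117 CPM in fluvastatin replicates 1 to 3 and 64, 67.3 and 58.4 CPM in MBV replicates 1 to 3. Every MBV library lay far below every fluvastatin library, and the gap between the groups was several times their spread. Insig1 fell by 0.83 on the log2 scale (standard error 0.0612, 95% confidence interval -0.97 to -0.69, FDR 0.00979), a 1.78-fold difference. The PBS libraries, at 83.1, 77.5 and 89.6 CPM, lay between both groups.

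Fdps (chromosome 3 of GRCm39, 89000895 to 89009266) encodes farnesyl diphosphate synthase, which makes the precursor shared by sterols and prenyl groups. Its level was 34.5, 31.7 and 33.2 CPM with fluvastatin and 23, 22.4 and 21 CPM with MBV, again without overlap. It fell by 0.58 on the log2 scale (standard error 0.0635, FDR 0.0471). Fdft1 (chromosome 14 of GRCm39, 63382599 to 63417027), squalene synthase, commits that precursor to sterols. With fluvastatin it measured 77.1, 78.8 and 75.2 CPM and with MBV 57.8, 59.6 and 57.1 CPM. The difference was small, -0.41 on the log2 scale (standard error 0.045, FDR 0.0471), but the replicates were tight and the groups stood apart. Fdps shares its strand with the overlapping Gm43738 and Fdft1 overlaps Ctsb on the other strand, and whether strand was used in counting is not given in the sources used here, so some of their reads could belong to the neighbours.

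Further members were among the 20 genes next in order of p without passing the FDR in edgeR, although limma and DESeq2 called both Nsdhl and Stard4, and edgeR with all 9 libraries in 1 fit called Nsdhl. Nsdhl, which removes a methyl group from the sterol ring, had 19.8, 21.8 and 20.3 CPM against 14.7, 15.7 and 14 CPM (log2 difference -0.48, FDR 0.139). Stard4, a cytosolic carrier of sterol, had 36.3, 38.1 and 39.6 CPM against 27.8, 27.3 and 22.1 CPM (log2 difference -0.56, FDR 0.141). In both genes all MBV libraries lay below all fluvastatin libraries.

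All 27 genes of the list of cholesterol synthesis and uptake were tested. Of these 4 passed the FDR, 22 had an unadjusted p under 0.05, all 22 of them lower with MBV, and in 21 all MBV libraries lay below all fluvastatin libraries, where 9.11% of all genes tested did so. The median log2 fold change of the list was -0.38, against 0.0043 over all genes tested. Without MBV replicate 3 the median was -0.33, again with 22 members at an unadjusted p under 0.05. Taking each of the 6 libraries out in turn gave medians from -0.42 to -0.33 and 20 to 22 such members. Members past the FDR numbered 16 with DESeq2, 11 with limma and 0 to 5 with 1 library left out, with 0 without fluvastatin replicate 2 or 3 or MBV replicate 1. Of the 20 genes with the smallest p in the whole table, 6 were members.

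Several but not all enzymes of the early steps, which lead to farnesyl diphosphate, had lower values with MBV without overlap. Hmgcs1, which makes HMG-CoA, had 212, 210.3 and 235 CPM with fluvastatin and 155, 177 and 133 CPM with MBV. Acat2, the thiolase at the entry of the pathway, had 24.1, 24 and 27 CPM and 17.3, 17.4 and 13.5 CPM, a log2 difference of -0.64 (FDR 0.141). Idi1, the isomerase of the isoprene unit, had 72, 72.5 and 83.6 CPM and 49.5, 57.7 and 41.4 CPM, a log2 difference of -0.62 (FDR 0.167). None of these single genes passed the FDR in edgeR, while limma called Hmgcs1, Acat2 and Idi1, and in each the lowest fluvastatin library exceeded the highest MBV library. Mvk and Pmvk, the mevalonate kinases, overlapped between the groups (log2 differences -0.25 and -0.13, FDR 0.374 and 0.693), whereas Mvd, which follows them, did not (log2 difference -0.56, FDR 0.141).

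Among the enzymes beyond squalene, which close and trim the sterol rings, several had smaller differences than Acat2, Idi1 and Mvd. Squalene epoxidase (Sqle), lanosterol synthase (Lss), lanosterol demethylase (Cyp51) and the late reductase Dhcr7 had log2 differences of -0.35, -0.34, -0.35 and -0.38, each without overlap and each with an FDR between 0.172 and 0.269. Dhcr7, for example, measured 30.4, 30.1 and 34.5 CPM with fluvastatin and 23.1, 24.8 and 25.1 CPM with MBV. Ebp, a sterol isomerase of the same stretch, overlapped (16.6, 15.1 and 16.9 CPM against 15.5, 14.9 and 13.6 CPM).

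The regulators Srebf2, Scap and Insig2 had small differences. Srebf2, which encodes SREBP2, had 189, 193 and 195 CPM with fluvastatin and 172, 179 and 163 CPM with MBV, a log2 difference of -0.17 (FDR 0.287). Scap had a difference of 0.06 with a 95% confidence interval from -0.05 to 0.16, and Insig2, a relative of Insig1 that also retains SCAP, one of 0.02 (-0.11 to 0.14). The groups overlapped in Scap and in Insig2.

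**Figure D2:**
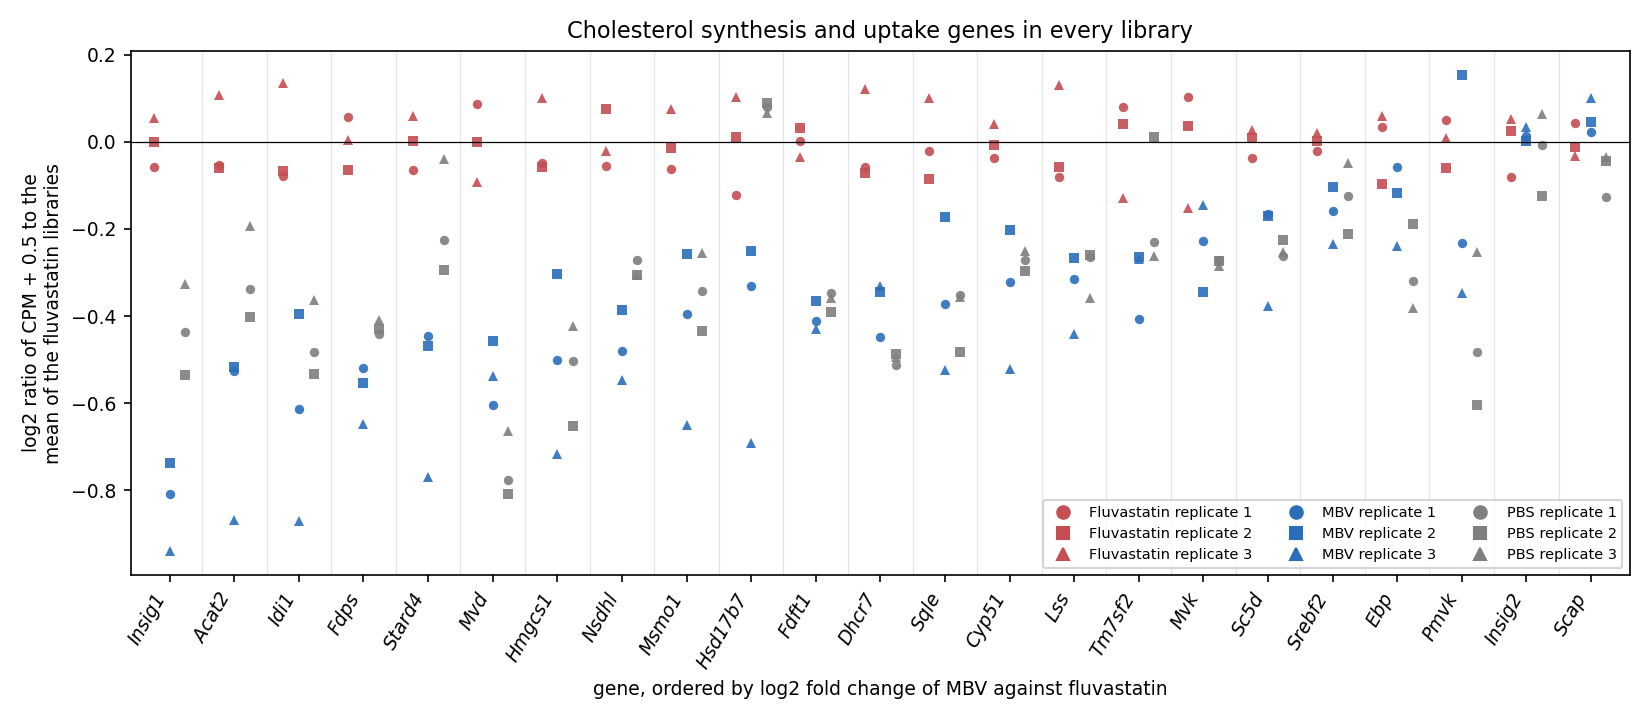
Plotted are 23 of the genes of cholesterol synthesis and uptake, ordered along the x axis by fold change, and the y axis gives the log2 ratio of CPM + 0.5 in each library to the mean of the 3 fluvastatin libraries, with red, blue and grey for fluvastatin, MBV and PBS and a symbol for each replicate. From Insig1 to Lss the blue symbols lie below all red ones, and the grey symbols lie mostly among or near the blue ones.

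Beside these groups, the PBS libraries lay below all fluvastatin libraries in 22 of the 27 genes and above them in 0. Their range overlapped the range of MBV in 17 genes, lay above it in 7 and below it in 3. The list level, the mean of log2(CPM + 0.5) over the 27 genes, was 5.42, 5.43 and 5.48 with fluvastatin, 5.08, 5.16 and 4.97 with MBV and 5.13, 5.09 and 5.18 with PBS, each in the order of the replicates. Whether RNA of the lens genes had a part in the difference between the groups was not tested.

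The promoters of Hmgcs1 and Insig1 show the kinds of short sequence known from SREBP2 target genes. RefSeq promoter windows (GRCm38.p6) were found for 19 of the 27 genes, 25 windows in all, and their 250 bases before the start were searched on both strands for the sterol regulatory element TCACNCCAC, the CCAAT box bound by NF-Y, and the E-box CACGTG, to which SREBPs can also bind. Fdps, Fdft1, Sqle and Stard4 were among those without a window. The 2 stretches of 150 bases below matched GRCm39 exactly, at chr13:120151737-120151886 for Hmgcs1 and at chr5:28276165-28276314 for Insig1, both on the plus strand, and each ends before the first annotated base of its gene. Capitals mark TCACCCCAC and ATTGG, the CCAAT box read from the other strand, in Hmgcs1, and ATTGG and CACGTG in Insig1.
Hmgcs1: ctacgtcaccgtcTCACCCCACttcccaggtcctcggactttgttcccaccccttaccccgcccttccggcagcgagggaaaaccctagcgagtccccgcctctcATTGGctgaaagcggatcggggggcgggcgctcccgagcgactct
Insig1: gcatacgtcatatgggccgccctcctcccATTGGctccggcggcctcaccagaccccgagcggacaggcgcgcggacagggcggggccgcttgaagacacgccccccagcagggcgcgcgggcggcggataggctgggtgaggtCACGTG
TCACNCCAC occurred in 1 of the 25 windows (4%), that of Hmgcs1, and in 1.05% of 32851 windows of all genes. The CCAAT box occurred in 17 of 25 (68%) against 33.8% of all windows, and the E-box in 5 of 25 (20%) against 6.02%. No match of one of these letters overlapped another in the sequences shown. These matches describe the letters only, since no binding was measured here.

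The isoprenoid branch of the pathway gave few differences. In the list of prenylation enzymes and the small GTPases that carry prenyl groups, 20 of 20 genes were tested, 1 was higher and 1 lower at an unadjusted p under 0.05, and the median was 0.01. The lower one was Ggps1, which makes the geranylgeranyl group (101, 101 and 100.03 CPM with fluvastatin, 90.8, 87.9 and 94.1 CPM with MBV, log2 difference -0.15, FDR 0.298), and the higher one was the GTPase Rap1b (log2 difference 0.14, FDR 0.363). Rhoa had a difference of 0.09 with an interval from -0.01 to 0.19. Rhob, another small GTPase, gave 39.1, 47 and 52.5 CPM against 46, 55.3 and 43.7 CPM and overlapped.

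Genes that move sterol out of cells had no call past the FDR in edgeR, 1 with DESeq2 and 0 with limma. Of 15 tested genes of cholesterol efflux and LXR targets, 4 were higher with MBV and 0 lower at an unadjusted p under 0.05, with a median of 0.08. Abca1, the pump that loads cholesterol onto apolipoproteins, had 56.5, 73 and 68.2 CPM with fluvastatin and 88.7, 83.2 and 86.4 CPM with MBV. The groups did not overlap (log2 difference 0.39, FDR 0.227), and PBS was above both with 119.6, 121 and 111 CPM. Nr1h3, which encodes the sterol sensor LXR alpha, had a log2 difference of 0.44 (FDR 0.358). Without MBV replicate 3, 1 member was higher and 1 lower at that p, without fluvastatin replicate 3 only 1 was higher, and the median without MBV replicate 3 was 0.03. Among 14 genes of fatty acid synthesis, a list chosen after values were seen, 4 were lower and 1 was higher, with a median of -0.03. Scd1, the stearoyl-CoA desaturase, stood out with 23.9, 33 and 29.4 CPM against 16.9, 18.9 and 15.3 CPM (log2 difference -0.76, FDR 0.141), while Fasn, the fatty acid synthase, differed by -0.19 (FDR 0.354).

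Usp2 (chromosome 9 of GRCm39, 43978318 to 44006924), a deubiquitinase with a strong daily rhythm in many tissues, was the one gene that rose with MBV past the FDR. It measured 147, 130.0 and 125 CPM with fluvastatin and 225, 212 and 253 CPM with MBV. The lowest MBV library exceeded the highest fluvastatin library by far, and the log2 fold change was 0.78 (standard error 0.0829, FDR 0.0471). PBS, with 132, 132 and 125 CPM, was at the level of fluvastatin. Usp2 overlaps Gm49380 on the other strand. Of 20 genes of the circadian clock, a list chosen after values were seen to which Usp2 itself belongs, 4 were higher and 0 lower at an unadjusted p under 0.05, and the median was 0.03. Per1, a clock repressor, had 113, 112 and 105 CPM against 129.8, 127 and 123 CPM (FDR 0.227), and Arntl, which encodes BMAL1, had 90.7, 86.4 and 88.7 CPM against 99.7, 94.7 and 105 CPM (FDR 0.30). The hour at which the retinas were taken was not given in the sources used here.

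Ip6k2 and Ccdc187 had differences of more than 2-fold just outside the FDR. Ip6k2 (chromosome 9 of GRCm39, 108660995 to 108683536) encodes an inositol hexakisphosphate kinase. It had 92.1, 71 and 72.4 CPM with fluvastatin and 155, 139.5 and 185 CPM with MBV, so that the groups stood clearly apart (log2 difference 1.03, standard error 0.127, FDR 0.0581). PBS gave 84.9, 90.7 and 84.3 CPM, near fluvastatin. Of the 14 inositol phosphate kinases and related enzymes tested, Ip6k3 was the only other member with an unadjusted p under 0.05, and it lay the other way (3.38, 2.58 and 4.16 CPM against 2.49, 1.97 and 1.67 CPM, log2 difference -0.71, FDR 0.325). Ccdc187 (chromosome 2 of GRCm39, 26133481 to 26184569), a coiled-coil protein gene, measured 6.02, 5.38 and 7.09 CPM with fluvastatin, 15.5, 12.1 and 16.8 CPM with MBV and 4.29, 4.47 and 3.6 CPM with PBS (log2 difference 1.26, standard error 0.152, FDR 0.057).

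Of the 20 genes next in order of p, Mmp15, Cdcp3 and H2-D1 also had an FDR under 0.1. Mmp15, a membrane-bound matrix metalloproteinase, was higher with MBV (16.6, 16.2 and 15.8 CPM against 22.5, 24.5 and 25.2 CPM, FDR 0.057). Cdcp3 was lower (86.4, 86.3 and 82.8 CPM against 58.6, 46.1 and 57 CPM, FDR 0.0774) and overlaps Fgfr2 on the other strand. H2-D1, a classical MHC class I gene, was higher (50.8, 50.4 and 62.4 CPM against 88.4, 89.5 and 80.9 CPM, FDR 0.0774). The groups did not overlap in any of these genes. The others of the 20, with an FDR from 0.129 to 0.141, included the collagen gene Col5a3 (10.3, 12.1 and 8.79 CPM against 16.6, 21.1 and 22 CPM) and P4ha1, a prolyl hydroxylase of collagen assembly (65.7, 67.3 and 69.1 CPM against 82.5, 83.7 and 80.7 CPM), both higher with MBV. On the lower side were Hmgb3, a chromatin protein (18.2, 18.7 and 17.6 CPM against 13.7, 13.1 and 13.2 CPM), and Traf3ip3 (9.86, 11.7 and 11.2 CPM against 7.09, 6.95 and 6.61 CPM), which overlaps A130010J15Rik on the other strand. Gm9803 had 0.0413, 0.336 and 0.17 CPM with fluvastatin, 4.64, 1.6 and 7.55 CPM with MBV and 4.74, 3.48 and 0.0759 CPM with PBS, and it reached the minimum count through the MBV libraries alone.

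Lens genes gave the largest differences of any list. Crystallins are the bulk proteins of the lens fibre, and glia also make Cryab. Where in the samples these RNAs were made was not tested. Of 20 lens genes, 16 were tested and 15 of these were higher with MBV at an unadjusted p under 0.05, but 0 passed the FDR in edgeR, against 4 with DESeq2 and 1 with limma. The median log2 fold change was 3.37, and in 10 of 16 all MBV libraries lay above all fluvastatin libraries, where 9.44% of all genes tested did so. The 4 others (Cryga, Crygf, Lim2 and Grifin) did not reach the minimum count in 3 libraries. Most of the tested lens genes reached it only with the help of the MBV libraries, so these counts and the median are a description.

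The lens signal varied strongly between libraries. Cryaa measured 0.578, 7.51 and 0.255 CPM in the fluvastatin libraries, 55.1, 35.2 and 26.9 CPM in the MBV libraries and 2.27, 0.341 and 0.0379 CPM in the PBS libraries. MBV replicate 1 was highest, and fluvastatin replicate 2 stood above its own group. Its log2 difference was 3.76 (standard error 0.766, FDR 0.192). Crybb2 repeated the order, with 0.206, 4.71 and 0.0424 CPM and 34.8, 13.8 and 13.2 CPM, and Crygd, a crystallin of the fibre core, had 0.165, 1.49 and 0.0424 CPM and 20.3, 1.23 and 3.22 CPM and overlapped because of fluvastatin replicate 2. Cryab was high in all retinas, with 21.2, 19.8 and 20.2 CPM against 37.3, 30.1 and 28.3 CPM (log2 difference 0.65, FDR 0.141).

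Summed over all 20 lens genes, the level was 26.5, 52.2 and 24.2 CPM with fluvastatin, 317, 116 and 113 CPM with MBV and 31.5, 24.4 and 25.9 CPM with PBS, and no lens gene was at 0 in any of these groups. Without fluvastatin replicate 2 the median log2 fold change of the 16 tested genes was 5.18, and without MBV replicate 1 it was 1.93, with 10 members at an unadjusted p under 0.05. More lens cells and more RNA of these genes per cell, in lens or in retina, cannot be told apart in such whole-tissue samples. The same limit holds for every cell type named here. Gamma crystallins are near-identical copies of each other, so the split of reads between Crygb, Crygc, Crygd and Cryge is uncertain.

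**Figure D3:**
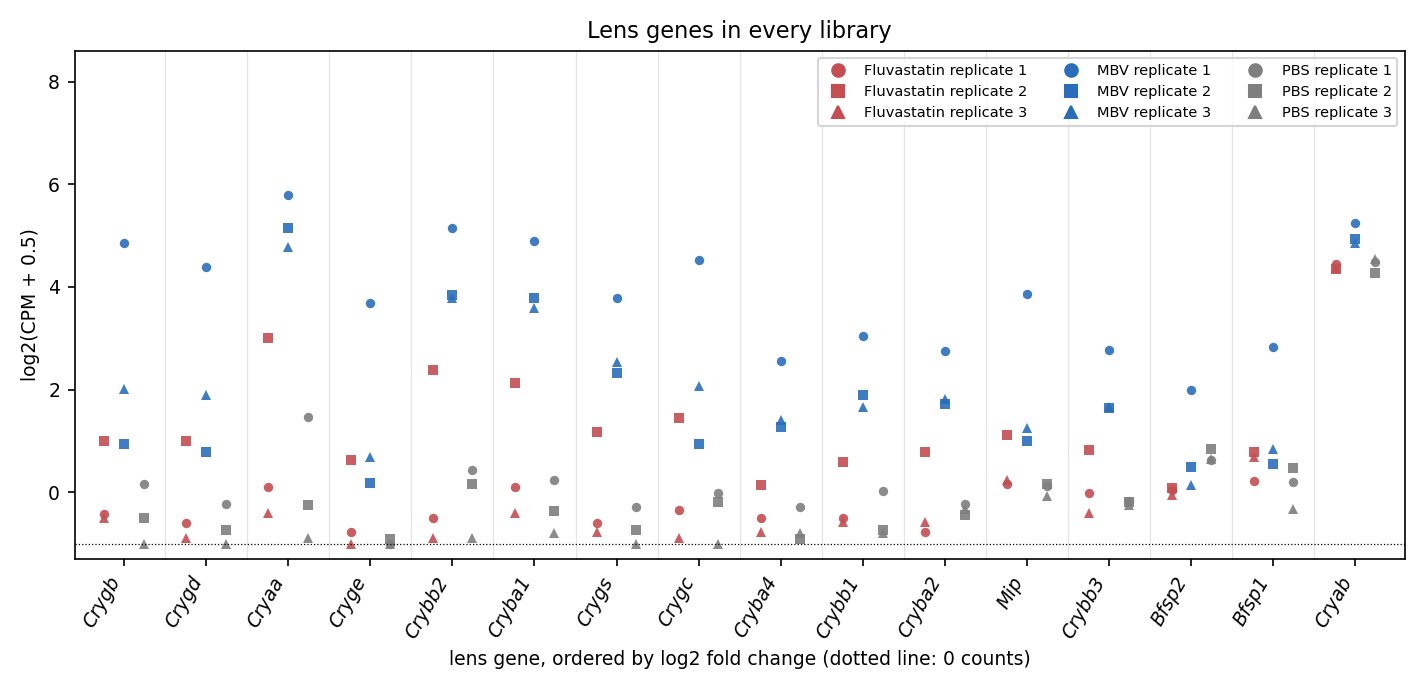
The 16 tested lens genes are ordered along the x axis by fold change, and the y axis gives log2(CPM + 0.5) in each of the 9 libraries, with the dotted line at 0 counts. MBV replicate 1 is highest in each gene, and fluvastatin replicate 2 lies apart from fluvastatin replicates 1 and 3 in nearly all crystallins.

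Genes of MHC class II, monocytes and complement had their highest list level in 1 library, MBV replicate 3, and none of the lists of immune genes had a call past the FDR in edgeR. Antigen presentation by MHC class II, which marks dendritic cells, macrophages and B cells, gave the widest gap. Of its 10 genes 8 were tested, and 5 were higher at an unadjusted p under 0.05 and 0 lower, with a median of 1.74. Without MBV replicate 3 no member had such a p and the median was 0.61, and without fluvastatin replicates 1 and 3, 0 and 1 members had one. Cd74, the invariant chain, had 1.77, 3.85 and 2.97 CPM with fluvastatin, 7.13, 2.42 and 36.4 CPM with MBV and 4.22, 3.89 and 6.07 CPM with PBS. The alpha chain gene H2-Aa had 0.454, 0.635 and 1.02 CPM with fluvastatin and 2.67, 0.594 and 13.3 CPM with MBV. In both genes MBV replicate 2 lay within the fluvastatin range, so the groups overlapped.

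Monocyte genes were also highest in that library. Ccr2, the chemokine receptor of inflammatory monocytes, measured 0.495, 1.2 and 0.552 CPM with fluvastatin and 2.38, 0.594 and 9.52 CPM with MBV (log2 difference 2.45, standard error 0.875, FDR 0.354). Only 6 of 14 monocyte markers reached the minimum count in 3 libraries, 3 of them with an unadjusted p under 0.05 and higher, and the median was 0.92, or 0.40 without MBV replicate 3. That count of 3 was 1 without MBV replicate 3, 1 without fluvastatin replicate 3, 2 without fluvastatin replicate 1 or MBV replicate 1, and 1 with limma. Summed over the 14 markers, the level was 9.45, 10.2 and 9.38 CPM with fluvastatin and 14.8, 10.1 and 41.8 CPM with MBV. Of the 8 that were too low to test, Ly6c2 and Plac8 had 70 and 86 counts in all MBV libraries together, 67 and 75 of them in a single library. Itgam, the CD11b integrin that microglia carry too, was the one member without overlap (5.2, 5.56 and 5.6 CPM against 7.71, 6.76 and 9.95 CPM, FDR 0.269).

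Neutrophil genes were close to the detection limit. Of 16 markers 3 were tested, 0 had an unadjusted p under 0.05, and Ly6g and Elane were at 0 in both groups. The summed level of the 16 was 14, 15.8 and 17.1 CPM with fluvastatin and 16.3, 16.7 and 22.8 CPM with MBV, most of it from Mmp9 (11.9, 13.3 and 15.2 CPM against 13.5, 14.7 and 15.6 CPM), which neurons and glia make as well. T and B lymphocyte markers, 4 of 14 tested, had 0 members at that p. Homeostatic microglia genes, 12 of 12 tested, had 0 higher and 1 lower member, Fcrls (2.31, 3.17 and 2.46 CPM against 1.21, 2.1 and 2.02 CPM, FDR 0.40), and a median of 0.16, or 0.03 without MBV replicate 3. Disease-associated microglia and phagocyte genes had 4 of 16 higher and 0 lower (median 0.20), among them Axl, a receptor for dying cells, with 24.2, 20.7 and 25.5 CPM against 31, 28.7 and 30.3 CPM (FDR 0.24). Without MBV replicate 3 that list had 1 higher and 3 lower and a median of 0.14, without fluvastatin replicates 1 and 2 it had 2 and 1 higher and 0 lower, and with limma it had 1 higher and 2 lower.

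Complement genes were highest in MBV replicate 3 as well. Of 14 genes 6 were higher and 0 lower at an unadjusted p under 0.05, with a median of 0.33, and without that library 2 were higher and the median was 0.06, while without fluvastatin replicates 2 and 3, 3 and 1 were higher. C3, the central component of the cascade, had 12.9, 9.9 and 7.0 CPM with fluvastatin and 21.8, 11.2 and 113 CPM with MBV, and Cfb, factor B of the alternative pathway, had 2.43, 1.83 and 1.36 CPM and 2.19, 1.55 and 22.6 CPM. For both genes 1 library accounts for nearly all of the excess. The interferon response genes, 21 of 22 tested, gave 5 higher and 0 lower members and a median of 0.34, with 0 and 0 and 0.20 without MBV replicate 3. This count was 0 higher and 1 lower without fluvastatin replicate 2, 1 without fluvastatin replicate 3, 2 without MBV replicate 1 and 10 without fluvastatin replicate 1. Slfn4 was not tested, because 182 of its 194 counts with MBV came from 1 library and fluvastatin had 6. Of 15 chemokine genes 8 were tested, 1 was higher (Ccl5) and the median was -0.07.

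MHC class I genes, which display peptides on nearly all cells, were higher in all MBV libraries for several members. The list was chosen after values were seen. Of its 16 genes 7 were higher and 0 lower at an unadjusted p under 0.05, where 6.58% of all genes tested were higher. In 6 of the 16 all MBV libraries lay above all fluvastatin libraries, where 9.44% of all genes tested did so. Without MBV replicate 3 again 7 were higher at that p, and the medians were 0.44 with all libraries and 0.30 without it. With any of the 6 libraries left out, 5 to 8 were higher and 0 lower, and DESeq2 and limma each called 3 members. H2-K1, a classical class I heavy chain, had 20.7, 17.5 and 18.5 CPM with fluvastatin, 32.2, 26.7 and 41.4 CPM with MBV and 22, 19.4 and 28 CPM with PBS. For H2-K1 all MBV libraries lay above fluvastatin, while PBS replicate 3 reached into the MBV range. The list level was 2.808, 2.455 and 2.606 with fluvastatin and 2.991, 2.814 and 3.159 with MBV, so the groups only just stood apart. With PBS it was 2.685, 2.497 and 3.249, and PBS replicate 3 lay above every MBV library. The PBS range overlapped that of MBV in 12 of the 16 genes and lay below it in 4. B2m, the light chain, had 27.1, 26.1 and 20.2 CPM against 40.0, 28.3 and 57 CPM (FDR 0.301), and Tap2, a peptide transporter, had 9.41, 6.16 and 7.89 CPM against 10.9, 9.92 and 10.9 CPM (FDR 0.345). H2 genes are close copies of each other, so the counts of single members are uncertain.

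**Figure D4:**
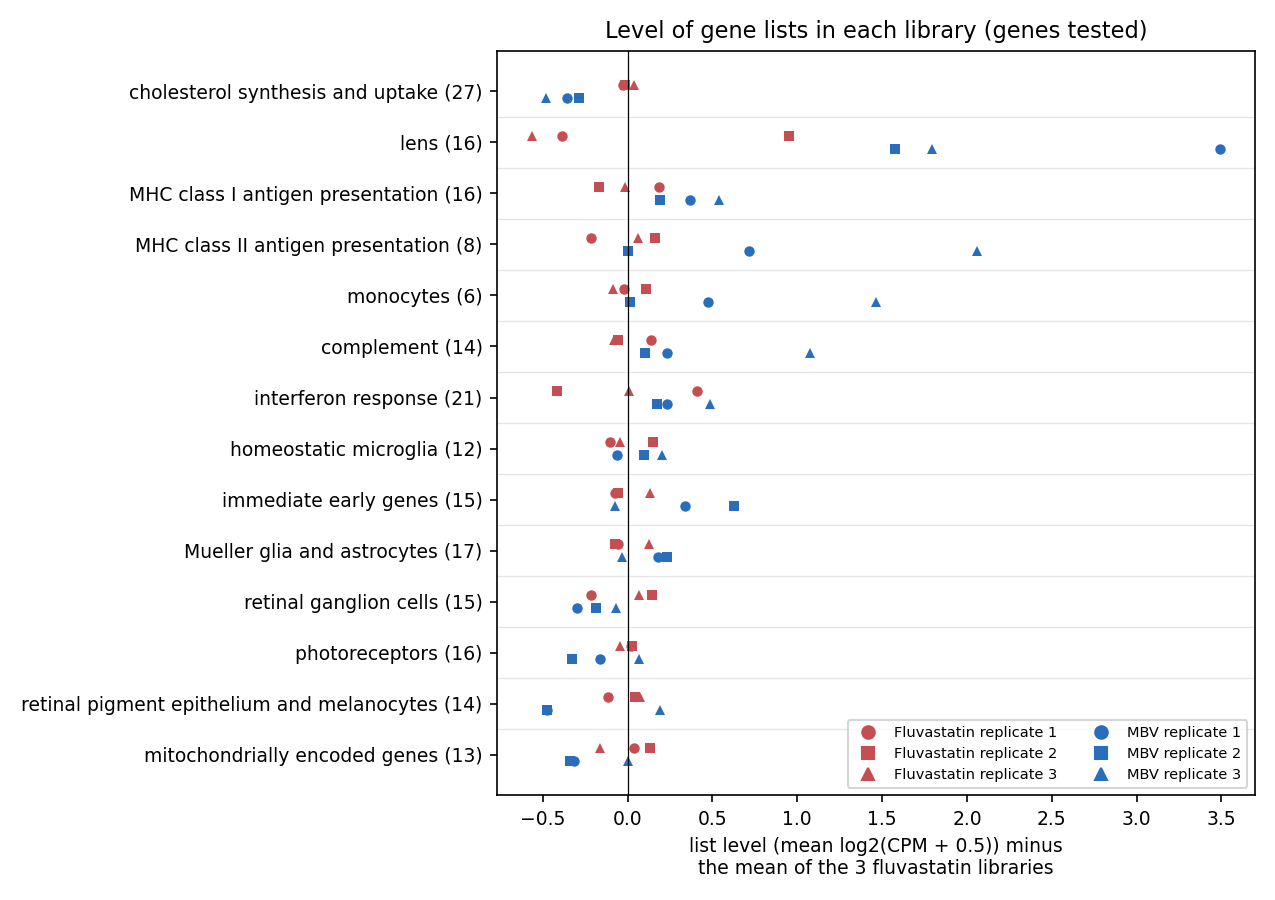
For 14 gene lists (number of genes tested in brackets), the x axis gives the list level of each fluvastatin and MBV library, the mean of log2(CPM + 0.5), minus the mean of the 3 fluvastatin libraries. The MBV libraries lie below fluvastatin for cholesterol synthesis and uptake, to the right for the lens and MHC class I, and spread apart for MHC class II, monocytes and complement, where MBV replicate 3 is far to the right.

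Immediate early genes, which cells switch on within minutes of a stimulus, had values above fluvastatin mainly in MBV replicates 1 and 2. Of 15 immediate early genes, 5 were higher and 1 lower at an unadjusted p under 0.05, with a median of 0.34. Without MBV replicate 3, 9 were higher, 2 of them past the FDR, and the median was 0.59, whereas without fluvastatin replicate 2, MBV replicate 1 or MBV replicate 2, 3 were higher. Egr1, a growth-factor-induced transcription factor, measured 53.9, 57.5 and 55.2 CPM with fluvastatin and 89.3, 117 and 80.1 CPM with MBV (log2 difference 0.78, FDR 0.141). The groups did not overlap, but PBS spanned both, with 56.5, 62.6 and 116 CPM. Nr4a3, an orphan nuclear receptor, had 2.64, 2.91 and 2.33 CPM against 4.68, 4.57 and 4.03 CPM (FDR 0.192), and Npas4, which neurons switch on with activity, was the lower one with 8.46, 9.04 and 8.45 CPM against 7.16, 7.31 and 6.09 CPM (FDR 0.329). The metallothionein genes Mt1 and Mt2, zinc-binding stress proteins chosen after values were seen, had 33.2, 27.2 and 30.8 CPM against 55.2, 65.5 and 40.6 CPM and 15.4, 8.7 and 12.8 CPM against 26.9, 37.8 and 17.4 CPM (FDR 0.175 and 0.252).

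Glial genes were mixed. Among 17 genes of Müller glia and astrocytes 3 were higher and 0 lower, with a median of 0.10. Lcn2, an iron-binding acute phase protein of reactive glia, led them with 10.9, 11.3 and 11.2 CPM against 32.2, 22.4 and 51.9 CPM (log2 difference 1.67, standard error 0.267, FDR 0.141). Its fluvastatin libraries were nearly equal, whereas MBV and PBS (14.3, 6.89 and 37.1 CPM) were widely spread. Slc1a3, the glial glutamate transporter, had 206, 189 and 197 CPM against 238, 236 and 216 CPM (FDR 0.261). Gfap, the filament protein of reactive glia, overlapped (63.3, 69.5 and 102 CPM against 55.9, 76 and 39.8 CPM, FDR 0.474).

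Markers of retinal ganglion cells, the neurons whose axons are injured by the crush, gave values slightly below fluvastatin, and 0 passed the FDR in edgeR, DESeq2 or limma. All 15 had a log2 fold change below 0, where 51.4% of all genes tested lay above 0. At an unadjusted p under 0.05, 3 were lower, where 5.81% of all genes tested were. The median was -0.19, or -0.29 without MBV replicate 3. The 3 became 0 without fluvastatin replicate 2 or MBV replicate 1, 5 without MBV replicate 3 and 10 without fluvastatin replicate 1. In the last of these fits 1097 of the 15065 genes tested were lower at that p. With limma 12 markers were lower, where 1509 of all genes tested were, and with a replicate block 6 were, where 728 were. Sncg, gamma-synuclein, had 29.3, 40.3 and 36.8 CPM with fluvastatin and 24.5, 26.6 and 30.3 CPM with MBV (log2 difference -0.39, FDR 0.313), and PBS had 25.6, 20.8 and 25.2 CPM. Isl1 was the single marker without overlap (57.9, 53.5 and 51.7 CPM against 49.3, 50.6 and 48.4 CPM, FDR 0.384). Over all genes tested, 9.11% had all MBV libraries below all fluvastatin libraries. Fluvastatin replicates 2 and 3 held the most, since the summed level of the list was 898, 1165 and 1076 CPM with fluvastatin, 839, 901 and 1009 CPM with MBV and 894, 793 and 952 CPM with PBS, so the groups overlapped.

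The axon injury and regeneration list had 2 higher and 0 lower among 18 tested genes and a median of 0.04, and with 1 library left out 1 to 7 were higher and 0 to 4 lower. Klf9, a transcription factor known to restrain axon growth, was one of them, with 159.5, 174 and 183 CPM with fluvastatin, 214, 223 and 209 CPM with MBV and 185, 186 and 192 CPM with PBS (log2 difference 0.32, FDR 0.167). The other was Chac1, a target of ATF4 (16.2, 16.5 and 12.3 CPM against 17, 22.3 and 17.5 CPM, FDR 0.401).

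Photoreceptor genes and mitochondrially encoded genes had their lowest values in MBV replicates 1 and 2, and 0 of either list passed the FDR in edgeR, DESeq2 or limma. The 16 photoreceptor genes had 0 higher and 2 lower members and a median of -0.15, with 4 lower in DESeq2 and 5 in limma. Without MBV replicate 3 they had 11 lower and a median of -0.28, where 1134 of the 15065 genes tested were lower. Prph2, a disc rim protein of the outer segment, had 3988, 3989.9 and 3860.3 CPM with fluvastatin and 3208, 2844 and 3875 CPM with MBV (FDR 0.395). Gnat2, the cone transducin, was the one photoreceptor gene without overlap (100.40, 111 and 102 CPM against 86.7, 75.7 and 97.4 CPM, FDR 0.316), where 9.11% of all genes tested had all MBV libraries lower. All 13 mitochondrially encoded genes had a log2 fold change below 0, 1 with an unadjusted p under 0.05, and a median of -0.23. With all libraries the count at such a p was 9 with DESeq2, 11 with limma and 0 with a replicate block. Over all genes tested, 633, 1509 and 728 were lower in these 3 fits. Without MBV replicate 3 all 13 had such a p and the median was -0.34. Without fluvastatin replicate 3 the count was 9, and without fluvastatin replicate 2, MBV replicate 1 or MBV replicate 2 it was 0. mt-Co2, a subunit of cytochrome oxidase, measured 2723, 3006 and 2618 CPM against 2250.4, 2193 and 2698 CPM. Bipolar genes had 0 higher and 1 lower of 12, the 1 being Isl1, which is on the ganglion cell list too, and amacrine and horizontal cell genes 0 of 15 in either direction, with medians of 0.04 and -0.01.

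Pigment cell genes overlapped between the groups as a list. Their summed level was 118, 168 and 160 CPM with fluvastatin, 91.1, 115 and 177 CPM with MBV and 186, 176 and 204 CPM with PBS. The 14 markers of retinal pigment epithelium and melanocytes had 0 members at an unadjusted p under 0.05, a median of -0.25, and one of -0.59 with 5 lower members without MBV replicate 3. Pmel, a melanosome protein, had 5.32, 4.85 and 4.12 CPM with fluvastatin, 3.4, 2.51 and 4.72 CPM with MBV and 20.7, 16.3 and 20.4 CPM with PBS, so both treatments lay well below PBS and overlapped each other (log2 difference -0.43, interval -0.95 to 0.10). Col4a3, a basement membrane collagen, did not overlap (11.5, 13.1 and 13.7 CPM against 7.86, 6.99 and 10.0 CPM, log2 difference -0.62, FDR 0.229), with PBS at 43.6, 42.8 and 32.6 CPM. Col4a4, its partner chain, had 13.5, 19.8 and 18.2 CPM against 10.2, 10.7 and 13 CPM (FDR 0.262). Col1a1, a fibrillar collagen, went the other way, with 3.01, 2.46 and 3.44 CPM against 9.43, 5.8 and 5.96 CPM (log2 difference 1.26, FDR 0.167).

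Endothelial and pericyte genes had 2 of 14 higher and 0 lower (median 0.24), including Vwf, the clotting factor of vessel walls (12.1, 15.7 and 17.5 CPM against 20.5, 22.6 and 26.2 CPM, FDR 0.24). Of 10 endothelial genes known to respond to statins, 2 were higher with MBV at an unadjusted p under 0.05 and 0 were lower, where 6.58% of all genes tested were higher. They were Hmox1, the heme oxygenase (6.31, 6.87 and 5.6 CPM against 11.2, 9.69 and 7.94 CPM, FDR 0.241), and Klf2 (FDR 0.367). Without fluvastatin replicate 3, 1 was higher and 2 were lower. Il33, whose product is a cytokine also found in MBV, had 50.5, 31.2 and 44.5 CPM in fluvastatin-treated and 48.3, 44.4 and 49.1 CPM in MBV-treated retinas, with a log2 difference of 0.17 and an interval from -0.18 to 0.52, so no difference was detectable in its mRNA. The list of IL-33 receptor signalling and early cytokines had 1 higher and 1 lower of 11 tested genes. Nfkbia, the inhibitor of NF-kB, was the higher one (18, 16.5 and 19.4 CPM against 23.6, 20.3 and 24.3 CPM, FDR 0.269) and Tnfaip3, another brake of that pathway, the lower one (309.8, 276 and 249 CPM against 213, 172 and 270.0 CPM, FDR 0.401).

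The remaining lists held few such members. Stromal fibroblast and collagen genes had 2 higher and 2 lower of 13, oligodendrocyte genes 1 and 1 of 4, and cell cycle genes 0 and 2 of 14. Heat shock proteins had 0 and 0 of 11, erythroid genes 0 and 0 of 5, and surface epithelium genes 0 and 0 of 3. Metallothionein and zinc transport genes had 3 higher and 0 lower of 9.

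MBV replicate 3 and fluvastatin replicate 1 shared genes that set them apart from the other libraries. Of the 10 genes most raised in MBV replicate 3 relative to its group, 6 were also high in fluvastatin replicate 1 and in all PBS libraries. Fbln1, a matrix glycoprotein, measured 84.1, 2.8 and 1.87 CPM with fluvastatin, 2.08, 1.37 and 63.7 CPM with MBV and 83.6, 69.5 and 90.4 CPM with PBS. Optc, which encodes opticin, a protein of the vitreous made by the ciliary epithelium, had 39.7, 1.68 and 1.06 CPM, 0.804, 1.28 and 15.9 CPM and 23, 21.8 and 28.2 CPM in the same order. Gpx3, Ltbp2, Mfap4 and Fmod, all genes of secreted proteins, had the same pattern, so that their log2 differences between the groups had standard errors from 1.09 to 1.34. The 4 others were Lyz2 (6.07, 3.2 and 56.1 CPM with MBV), Cfb, Cd74 and H2-Aa, all of them immune genes, and fluvastatin replicate 1 was not high in these.

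The 10 genes lowest in MBV replicate 3 relative to its group included genes of reactive Müller glia. Prss56, a serine protease of Müller glia, had 44.5, 121 and 215 CPM with fluvastatin, 208, 296 and 4.46 CPM with MBV and 6.3, 10.6 and 8.23 CPM with PBS. Lif, a cytokine of reactive Müller glia, had 3.14, 2.28 and 8.66 CPM, 8.04, 13.4 and 1.37 CPM and 1.43, 0.956 and 2.2 CPM. Fosl1, a partner of JUN, had 2.52, 4.21 and 0.257 CPM and Ptgfr, the prostaglandin F receptor, had 5.3, 8.96 and 1.07 CPM with MBV. In all 4 genes MBV replicate 3 lay with or near the PBS libraries. The 6 others were Fam177a2, Srp54b, Eif3j2, Pagr1a, Fam205a3 and the predicted gene Gm2004, most of them members of duplicated gene families, so the split of reads between copies is uncertain.

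**Figure D5:**
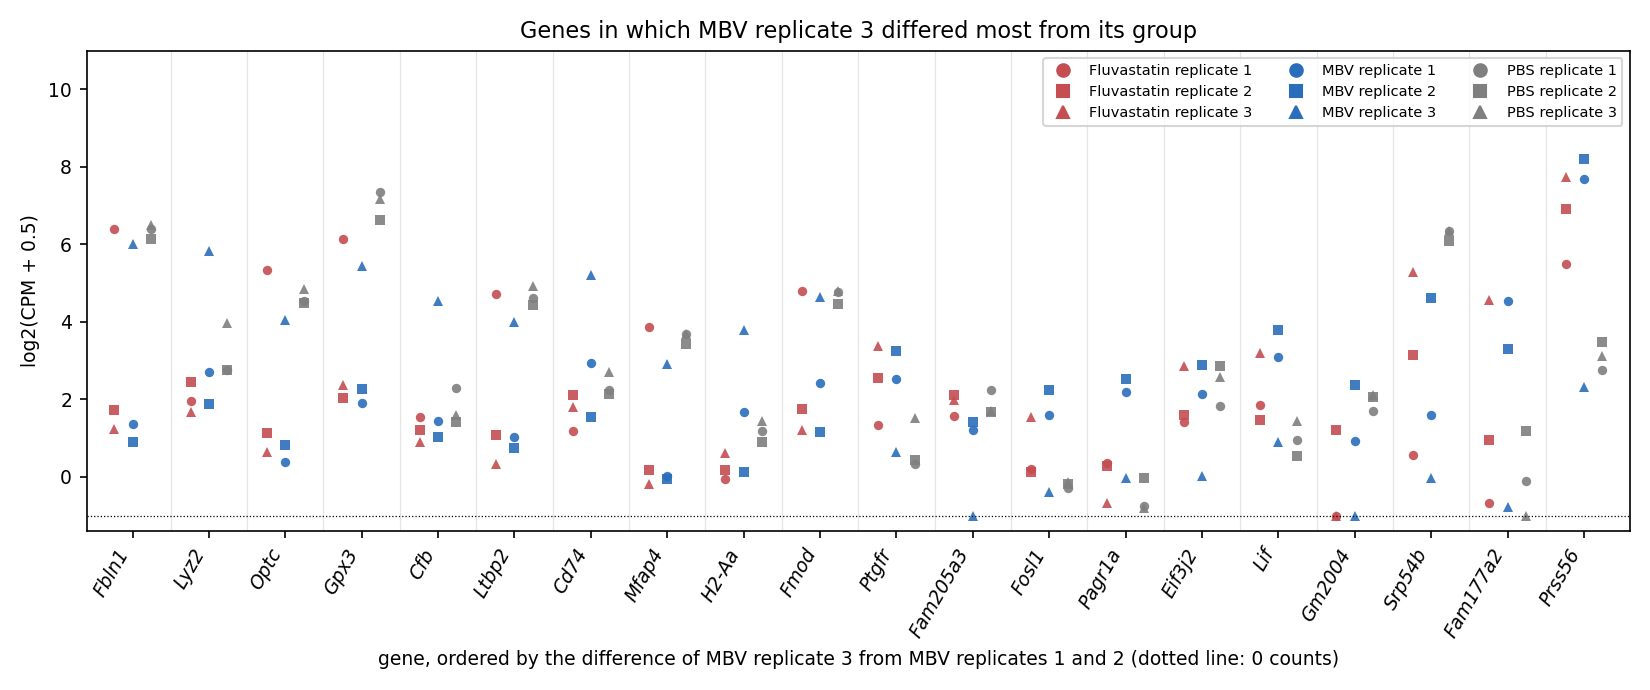
For the 10 genes highest and the 10 lowest in MBV replicate 3 relative to MBV replicates 1 and 2, the y axis gives log2(CPM + 0.5) in each of the 9 libraries, with the dotted line at 0 counts. In Fbln1, Optc, Gpx3, Ltbp2, Mfap4 and Fmod the triangle of MBV replicate 3 and the circle of fluvastatin replicate 1 lie with the PBS libraries, while in Cd74, H2-Aa and Lyz2 MBV replicate 3 lies alone.

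Lars2 and Olfr769 lay above all PBS libraries in both groups and did not separate the groups from each other. Lars2, the mitochondrial leucyl-tRNA synthetase, measured 770.0, 1327 and 5340.5 CPM with fluvastatin, 1659.5, 1307 and 1604 CPM with MBV and 212, 235 and 366 CPM with PBS, and fluvastatin replicate 3 was several times above all others. Its log2 difference of -0.70 (FDR 0.661) became 0.53 without that library. Olfr769, an olfactory receptor gene, had 2.19, 2.09 and 2.72 CPM against 2.85, 2.19 and 3.05 CPM and 0.13, 0.205 and 0.19 CPM with PBS, and its log2 difference of 0.21 had an interval that includes 0.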

How the data were processed

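Total RNA of whole retinas was prepared with a TruSeq kit and sequenced as 75-base paired ends. The authors mapped the reads in CLC Genomics Workbench with GRCm39 as reference and deposited raw counts per gene, in 4 tables of which 2 were used. Columns with the authors' own fold changes and p-values were not used, nor were 6 count columns without a library name or the samples of the combined treatment.

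TMM factors from edgeR 4.0.16 (R 4.3.3) scaled the counts of the 6 libraries, and 15065 genes with at least 10 counts in 3 libraries were tested by quasi-likelihood, FDR after Benjamini and Hochberg. CPM of 9 libraries, PBS included, were put on 1 TMM scale, and a list level adds 0.5 before the log2. Depth was 21349516 to 27098889 counts, so low genes carry counting error as well as the spread between replicates. The scripts were tested on simulated data. Alternatives were DESeq2 1.42.0, limma 3.58.1 with a weight per library, a replicate block, all 9 libraries, other filters and scalings, and 1 library left out.

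The comparison and all lists were chosen with earlier results of these data known. Of 471 genes in 32 lists, 401 were tested, and 4 more lists and 1 alternative (library totals as the scale) were added after values were seen. Named were genes with an FDR under 0.05, the next 20 by p, in each list the called members and the 3 with the smallest p, 18 fixed names, and the 10 genes highest and lowest in the library farthest from its group. Other genes were named after their values were seen, and the results of some genes are not reported here. Positions and overlaps of genes were taken from the gene positions deposited with the counts. The gene starts beside the promoter sequences were read from GENCODE.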

Additional observations from a re-analysis of the deposited data

How the results depend on the processing

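Over 14 alternatives, Insig1 had an FDR under 0.05 in 10, Usp2 in 9, and Fdps and Fdft1 in 6 each, all with the direction given. Of the genes next in order, Ip6k2 had one in 8, Ccdc187 in 7, Cdcp3 in 6, Mmp15 in 5 and H2-D1 in 4. Of 448 list medians 424 moved by less than the spread between libraries. The 5 calls became 11 with a count in at least 1 library as filter, 1 (Insig1) with DESeq2's size factors, 127 with DESeq2's Wald test, 50 with a limma weight per library and 16 with all 9 libraries in 1 fit. With 1 library left out they numbered 0 to 23. Genes with at least a 2-fold change, 0 above, numbered 2, 12, 6 and 2 with the wider filter, DESeq2's test, limma and all 9 libraries, 2 with library totals as scale, and 0 to 5 with 1 library left out. At an unadjusted p under 0.05, limma gave 3065 genes, and leaving out 1 library gave 1208 to 2425. Without TMM, 1327 were higher and 512 lower, against 992 and 876, and the median of all genes moved by 0.028. Members of the 32 first lists past the FDR, 4 above (Usp2, in the clock list added later, is not counted), numbered 1 with DESeq2's size factors, 30 with its test, 16 with limma, 7 with all 9 libraries and 0 to 10 with 1 library left out.

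Replicate numbers are shared by both groups, and the deviations of same-numbered samples from their group means had correlations of -0.13, 0.0044 and -0.36. These values also depend on which library lies farthest from its group, so they cannot show whether the samples were paired. A replicate block gave 0 calls, 1530 genes with an unadjusted p under 0.05, and 0 list members past the FDR, against 21 cholesterol genes lower at an unadjusted p under 0.05.

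Some log2 differences that were not called changed sign with 1 library left out. Over the 6 libraries left out, the values ran for Csf3r from -0.21 to 1.00, Csf1r from -0.00254 to 0.47, Cxcl12 from -0.40 to 0.0137, Krt12 from -1.06 to 1.15, Hba-a1 from -0.0856 to 1.38, Lars2 from -1.13 to 0.53, Rhob from -0.0438 to 0.16, Il33 from -0.00646 to 0.33, and for Prss56 from -0.25 to 1.02. They ran for Fam177a2 from -0.82 to 3.76, Srp54b from -3.36 to 0.92, Eif3j2 from -0.76 to 0.69, Ptgfr from -0.83 to 0.45, Fbln1 from -4.07 to 3.24, Optc from -3.78 to 2.11, Gpx3 from -2.79 to 2.02, Ltbp2 from -2.76 to 2.32, Mfap4 from -3.34 to 2.35 and Fmod from -1.66 to 2.13. Within these limits, Fbln1 was 0.15 and Fmod 0.31 without MBV replicate 1, and Rhob was -0.0437, Fbln1 0.14 and Fmod 0.46 without MBV replicate 2. Eif3j2 was 0.50 and Ptgfr 0.30 without MBV replicate 3, and Fam177a2 was -0.16 and -0.10 without fluvastatin replicates 1 and 2. With limma, Rhob became -0.00813, Prss56 -0.0873, Ltbp2 0.17 and Fmod 0.53, and with library totals Eif3j2 became 0.0257. The cause was not tested.

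With 3 libraries a group, differences of a low gene such as the monocyte and neutrophil markers were not detectable at this depth unless large. Without MBV replicate 3 and fluvastatin replicate 1 the variation within their groups was 5.51% and 5.33%, but each was picked as the farthest library of its group.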
